A study of Schmidtea mediterranea with 2 samples.

Results

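The 7 genes described here are the abundant intestine genes of a spatial transcriptomics dataset of the planarian flatworm Schmidtea mediterranea. They are the genes that the study's marker table lists for the intestine alone, other than mat2a, and were chosen by their abundance, at least 1000 unique molecular identifiers (UMIs, each counted as 1 captured RNA molecule). They are 7 of 15 intestine genes in that table and of 22150 genes in the counts. Tissue was embedded, frozen, cut on a cryostat and placed on 1 Slide-seqV2 puck, a glass surface packed with barcoded oligo-dT beads whose positions are known. The tissue is labelled worm fragments, and strain, age and treatment were not given in the sources used here. There was 1 library, sequenced in 2 runs, so the groups compared are regions and beads of 1 puck and not treated and untreated animals.

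The planarian intestine is a branched, blind-ended tube that carries food to the whole body, as these animals have no circulatory system. Its lining holds phagocytic cells, which take up and store nutrients, and secretory goblet cells. The tissue around the branches holds the stem cells, called neoblasts, which replace every cell type and are marked by piwi-1, a gene of the PIWI family of small RNA-binding proteins. The canonical intestine marker of the study is mat2a, whose product in other animals makes the methyl donor S-adenosylmethionine. The files name the 7 genes only by SMED30 identifiers, with no annotation, so their individual roles are not given here and no sequences were at hand.

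The study describes its lists as established markers taken from a single-cell RNA-seq atlas, which is a source outside this puck. The table itself marks these genes as differentially expressed, and the methods compared beads with and without mat2a on this same puck. Their co-occurrence with mat2a, and through it with one another, may therefore also have been used to choose them. The values below describe how the 7 genes lie in the tissue and are not independent evidence that they are intestine genes. Beads of 1 puck are not replicates, so no p-values are given and intervals cover counting error only.

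The table used, with both runs and Syrah-processed barcodes, held 3364828 UMIs on 33518 barcodes. Of these, 8789 beads had at least 50 UMIs, with a median of 196 and a range of 50 to 6388. Tissue lay under 5923 of the beads (median 241 UMIs), and 2866 beads lay off it (median 127 UMIs), where tissue means that at least 25% of the 50 nearest barcodes held 10 or more UMIs. The tissue formed 15 separate pieces of 110 to 629 beads, numbered here from the highest y position to the lowest. Positions are in coordinate units whose physical size is not stated, and the median distance to the nearest other bead was 16.7 units. The most abundant gene took 15.3% of all UMIs.

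The 7 genes together made up 1.58% of the UMIs on these beads (50160 UMIs, 95% Clopper-Pearson interval 1.57 to 1.60%). SMED30018252 was by far the most abundant, with 24606 UMIs or 0.777% of all UMIs, and supplied 49.1% of the summed UMIs. SMED30035609 had 7190 UMIs (0.227%) and SMED30020296 had 6638 (0.210%). SMED30018899 followed with 4844 UMIs (0.153%) and SMED30001635 with 3343 (0.106%). SMED30032823 had 2170 UMIs (0.0685%) and SMED30005670, the member nearest the threshold, had 1369 (0.0432%). Gene lengths were not used here, so this is an order of UMIs and not of transcripts per length. The intervals of neighbours in this order did not overlap, SMED30035609 (0.222 to 0.232%) and SMED30020296 (0.205 to 0.215%) included.

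Just outside the threshold lay SMED30015889, the highest of the 6 scarcer intestine genes, with 885 UMIs. The marker mat2a itself had 1032 UMIs (0.0326%) and piwi-1 had 1805 (0.0570%). SMED30016196, which the table lists for both the intestine and the stem cells, had 66433 UMIs and is kept apart from both lists.

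At least 1 of the 7 genes was detected on 6588 of the 8789 beads, and all 7 on 117 beads, whose median depth was 1450 UMIs. SMED30018252 was present on 65.5% of beads over tissue and on 49.9% of beads off it, and SMED30005670 on 9.89% over tissue and 5.90% off it. The shallower beads off tissue therefore also held UMIs of these genes. As a share of UMIs, which does not depend on depth in this way, the sum was 1.64% over tissue and 1.38% off tissue. The ratio of the share over tissue to that off tissue was 1.04 (SMED30005670) to 1.28 (SMED30032823), and the median over the 333 genes with at least 1000 UMIs was 1.06, with 5% of genes above 1.40. The members were thus a little richer over tissue, within the range of other abundant genes.

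Depth within the bead set had a small relation to the level. In 5 groups of beads of equal size, from the shallowest to the deepest, the summed share was 1.39%, 1.41%, 1.52%, 1.66% and 1.60%. SMED30005670 made up 0.0290% of UMIs in the shallowest group (33 UMIs) and 0.0463% in the deepest (850 UMIs), while SMED30001635 made up 0.113% in the shallowest and 0.106% in the deepest.

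SMED30018252 lay on 5307 beads and SMED30005670 on 755. The largest number on 1 bead was 94 for SMED30018252, 29 for SMED30005670 and 9 for SMED30032823.

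To describe where the genes lay, the puck was divided into squares of 100 units, of which 771 held at least 500 UMIs, with a median of 2816. Each gene's share of UMIs in a square, called a patch here, was then mapped.

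**Figure D1:**
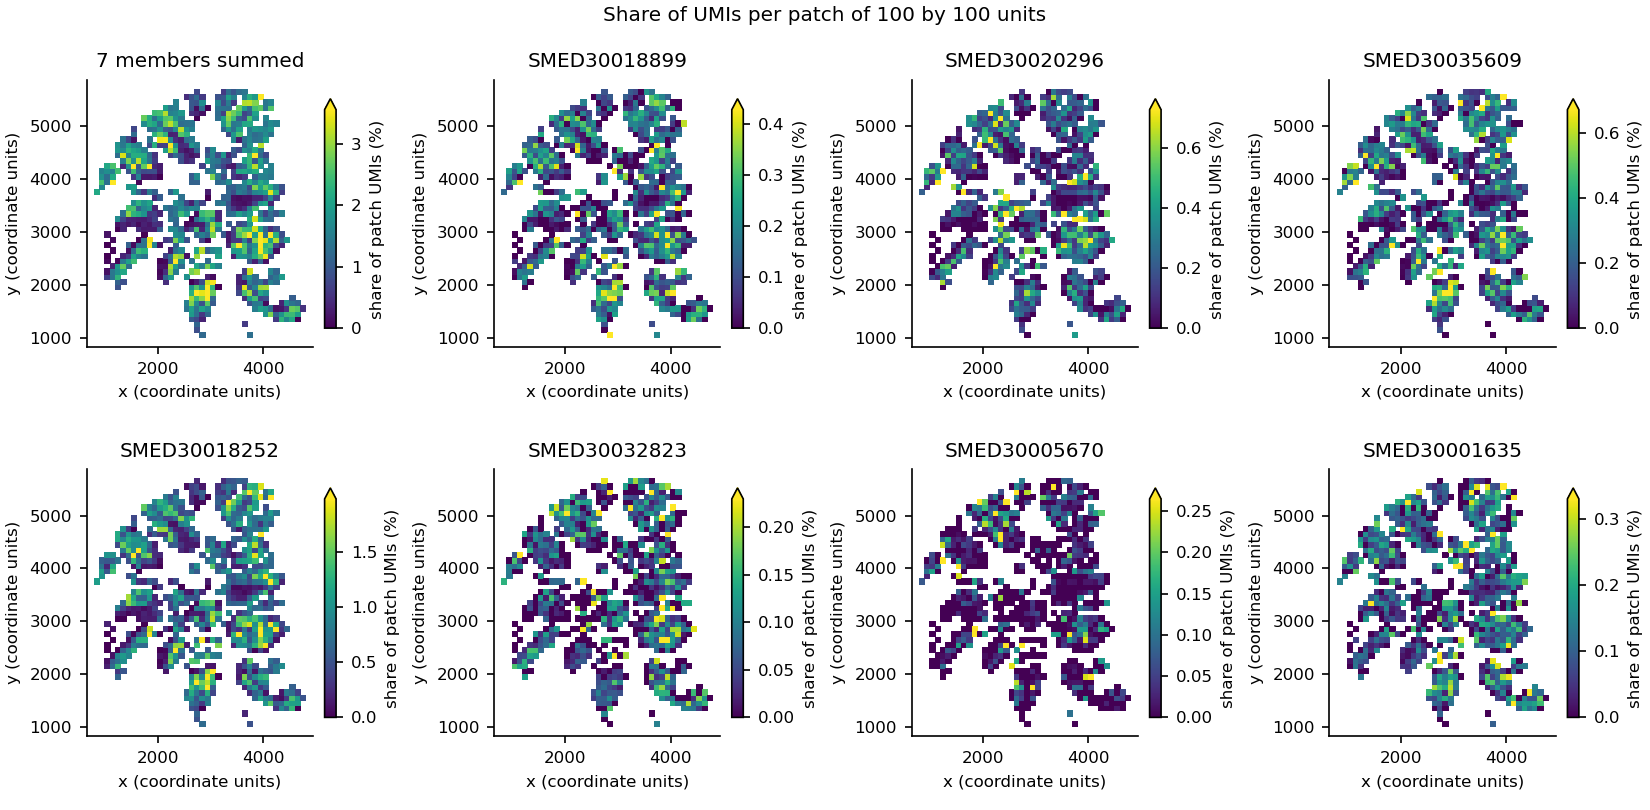
Share of UMIs (%) in each of 771 patches of 100 by 100 coordinate units, for the 7 genes summed and for each gene, at the patch's x and y position; colours are capped at the highest 2% of patches. The same patches are bright in several panels, and SMED30005670 is at 0 in many patches where the more abundant genes are not.

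Each of the 7 genes had a higher share in patches that were rich in the other 6. For each gene, patches were ranked by the summed share of the other 6, and its share in the richest 20% (154 patches) was divided by that in the poorest 20% (154 patches). SMED30018252 made up 1.33% of UMIs in patches rich in the other 6 genes (10075 UMIs) and 0.158% in patches poor in them (866 UMIs), a ratio of 8.40. SMED30035609 made up 0.417% in rich and 0.0396% in poor patches, a ratio of 10.5. SMED30020296 made up 0.338% in rich and 0.0297% in poor patches, and its ratio of 11.4 was the highest of the 7.

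The remaining 4 genes had lower ratios over the whole puck. SMED30018899 made up 0.267% of UMIs in rich and 0.0332% in poor patches (ratio 8.06). SMED30005670 made up 0.0724% (565 UMIs) in rich and 0.0123% (67 UMIs) in poor patches, a ratio of 5.91. SMED30032823 had a ratio of 5.44 (0.105% in rich and 0.0192% in poor patches). SMED30001635 had the lowest, 4.12 (0.167% in rich and 0.0405% in poor patches).

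All 7 ratios were at least 1.5, with a median of 8.06. Of the 326 other abundant genes, ranked over patches by all 7 members, 24.5% reached 1.5, their median was 0.909 and their range was 0.0453 to 11.4. Some genes outside the list had ratios as high as the members. The richest 20% of patches by all 7 genes held 1867 beads with a median of 270 UMIs, 80.4% of them over tissue, and the poorest held 1488 beads with a median of 220 UMIs, 72.1% over tissue. The part of depth in the ratio was not tested.

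**Figure D2:**
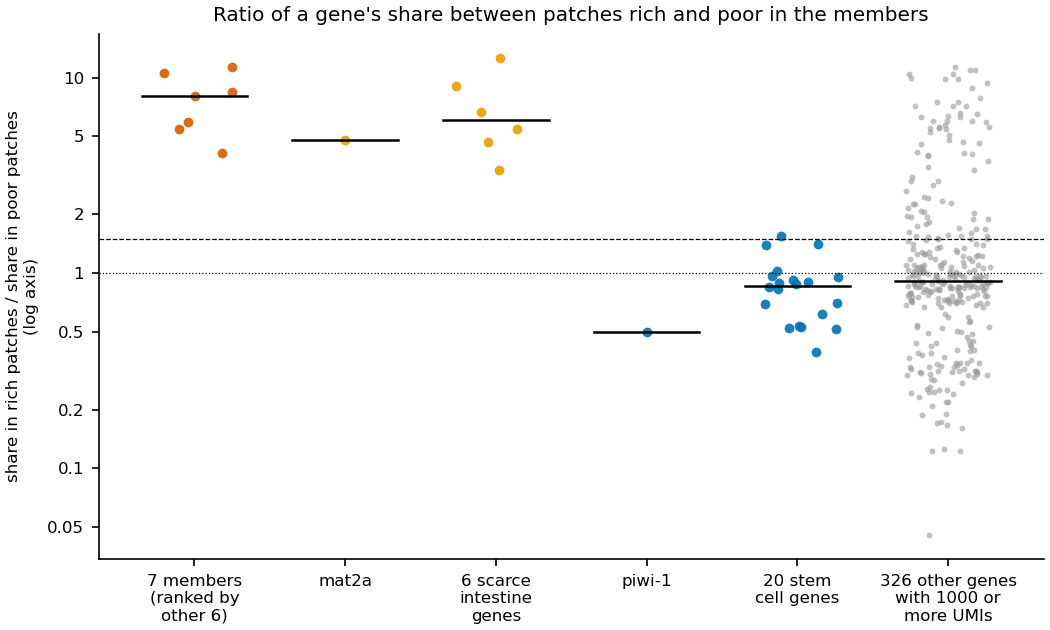
Share of a gene's UMIs in member-rich patches divided by that in member-poor patches (log axis), for the 7 members, mat2a, 6 scarce intestine genes, piwi-1, 20 stem cell genes and the 326 other genes with at least 1000 UMIs, which include mat2a, piwi-1 and stem cell genes; bars are medians, the dotted line marks 1 and the dashed line 1.5. The members lie between 4.12 and 11.4, mat2a at 4.78 and piwi-1 at 0.497.

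The median ratio was 8.37 over tissue and 7.29 off tissue. It ranged from 5.31 to 17.4 over the 4 quadrants of the puck, was highest in the quadrant of low x and low y, and was 5.04 when that quadrant was left out. Without it, SMED30018899 had 5.04, SMED30020296 6.76 and SMED30035609 6.58. The ratio of SMED30005670 depended most on single quadrants, at 2.83 to 36.6 over the 4, and was 14.6 without the quadrant of low x and high y. Larger patches of 200 units gave 4.12, and the upper against the lower 50% of patches gave 2.64. Ranked inside each of the 12 pieces of tissue with at least 20 patches, the ratio of upper to lower 50% was above 1 in 84 of 84 combinations of gene and piece, with a median of 2.40. For the other abundant genes, over patches ranked by all 7 members, it was above 1 in 47.1% of 3901 combinations, with a median of 0.972. The lowest member value, 1.03, was for SMED30005670 and the highest, 13.1, for SMED30020296.

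The levels followed the ranking over the whole range of patches and not only at its ends. In 5 successive groups of patches, from the poorest to the richest, SMED30018252 made up 0.158%, 0.491%, 0.731%, 0.943% and 1.33% of UMIs. SMED30005670 made up 0.0123%, 0.0277%, 0.0373%, 0.0540% and 0.0722%. The other 5 genes also had a higher share in each group than in the one before. Counting intervals of successive groups overlapped at groups 2 and 3 for SMED30005670. They overlapped at groups 3 and 4 for SMED30032823 and SMED30001635. The share of other abundant genes that rise in this way was not counted.

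**Figure D3:**
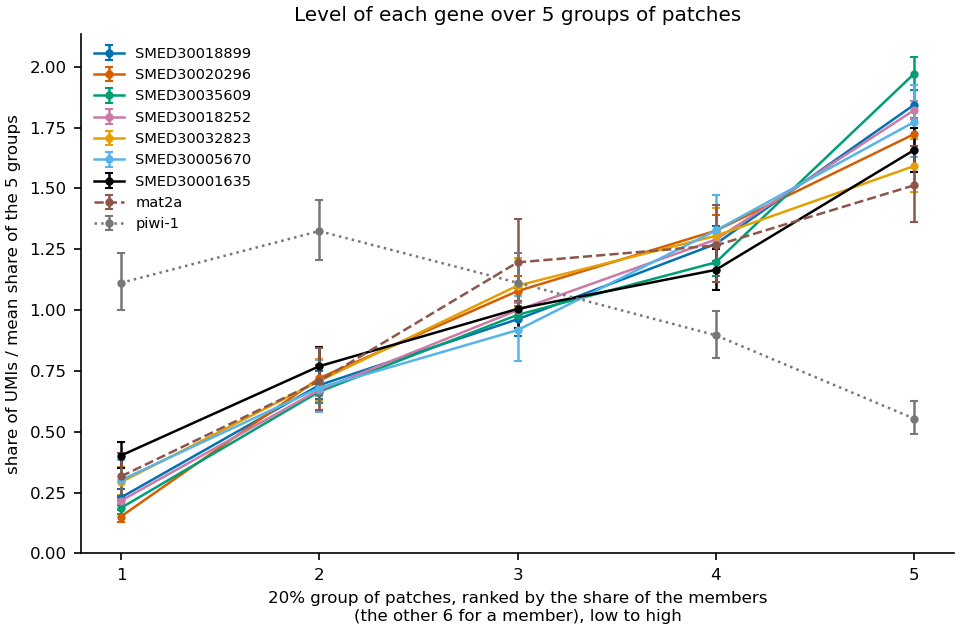
Share of UMIs of each gene in 5 groups of patches of equal number, divided by the mean of its 5 shares, against the rank of the patches by the summed share of the members (of the other 6 for a member); bars are 95% counting intervals. The 7 members and mat2a are higher in each successive group, with overlapping intervals at some steps, and piwi-1 is lowest in the richest.

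The listed markers were set against the same patches. mat2a, which was not used to rank them, made up 0.0471% of UMIs in member-rich patches (372 UMIs) and 0.00986% in member-poor patches (54 UMIs), a ratio of 4.78. The 6 scarce intestine genes had ratios of 3.37 (SMED30020778) to 12.7 (SMED30015889), with a median of 6.04, and 6 of 6 reached 1.5. They had only 6 to 24 UMIs in the poor patches (20 for SMED30015889), so these ratios are imprecise. The 24.5% of other genes that reached 1.5 covers genes with at least 1000 UMIs, and no share was counted for genes this scarce. These genes come from the same list as the members and differ in having fewer than 1000 UMIs. The same caution about how the list was chosen holds for them.

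Stem cell genes, the markers of the other cell type listed by the study, had lower ratios. piwi-1 made up 0.0327% of UMIs in member-rich patches (258 UMIs) and 0.0658% in member-poor patches (360 UMIs), a ratio of 0.497. Over the 5 groups, from poor to rich, its share was 0.0658%, 0.0784%, 0.0658%, 0.0530% and 0.0328%. The 20 other stem cell genes had a median ratio of 0.862, beside 0.909 for the other abundant genes, and ranged from 0.396 (SMED30033302, 16 UMIs in rich and 28 in poor patches) to 1.55 (SMED30029899). Of these 20 genes, 1 reached 1.5. SMED30016196, the gene on both lists, had a ratio of 1.07.

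On a finer scale, each gene was compared with itself on neighbouring beads. The clumping ratio is the number of pairs of a gene's UMIs on different beads more than 10 and at most 50 units apart, divided by the number expected if the gene's overall share applied on every bead. It is 1 where a gene is spread evenly over the UMIs. SMED30005670 was the most clumped of the 7, with a ratio of 3.13 (1.64 to 3.41 over the 4 quadrants). SMED30020296 had 1.49 (1.27 to 1.68), SMED30035609 1.46 (1.26 to 1.80) and SMED30032823 1.44 (1.30 to 1.52). SMED30018899 and SMED30018252 both had 1.41, with quadrants from 1.22 to 1.61 and from 1.1996 to 1.68. SMED30001635 was the least clumped, at 1.18 (1.06 to 1.34). The quadrant range of SMED30005670 overlapped those of SMED30020296, SMED30035609 and SMED30018252 at its lower end.

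Of the 7 genes, 6 had a ratio of at least 1.2, against 39.3% of the 333 abundant genes, and the exception was SMED30001635. On beads off tissue SMED30001635 was called, at 1.37, and SMED30032823 was not, at 1.11. SMED30001635 was also called with every bead given equal weight (1.23) and without the 1% of beads with the most UMIs (1.27). It was called at 1.21 without the quadrant of high x and low y. The share of abundant genes called in these settings was not counted. On all beads the median was 1.44 for the members and 1.13 for all abundant genes, of which the most clumped reached 28.9. The members therefore ranked between 41 and 145 of 333 and were not among the extremes. At a limit of 1.5 in place of 1.2, 1 of the 7 genes was called (SMED30005670), against 20.1% of abundant genes. The markers mat2a and piwi-1 were also clumped, mat2a at 1.41 and piwi-1 at 1.59, while SMED30016196 had 1.08.

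The clumping was lower when counted inside pieces of tissue. This count used only pairs of beads of the same piece, and 5394 of the 8789 beads lay in pieces. On all beads over tissue, with the expectation of the whole tissue, the median of the members was 1.39. The part of clumping between pieces was therefore not separated from the change of beads. With pairs and expectation taken inside each piece, 6 of 7 genes still had at least 1.2, against 31.5% of abundant genes. The median was 1.25 for the members and 1.08 for all. SMED30005670 then had 2.16 and SMED30001635 1.06. Among the 12 pieces with at least 200 beads, the median ratio of a member was 1.12 (SMED30001635) to 1.99 (SMED30005670). It was 1.11 for mat2a and 1.36 for piwi-1. Single pieces ranged from 0.839 to 1.41 for SMED30001635 and from 1.13 to 3.57 for SMED30005670. The whole-puck value of SMED30005670 was 2.63 without piece 4, the piece where its share was highest, and the other 6 genes kept ratios of 1.16 to 1.53 when any 1 piece was left out.

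The reach of the clumping differed between genes. At 10 to 25 units SMED30005670 had a ratio of 4.23, at 50 to 100 units 1.94 and at 100 to 200 units 1.22, and at 200 to 400 units it was 1.496. SMED30020296 had 1.57, 1.34, 1.18 and 1.15 over the same distances. SMED30018252 had 1.498, 1.28, 1.15 and 1.07, and SMED30001635 had 1.201, 1.17, 1.05 and 1.03. The median of the 333 abundant genes was 1.16, 1.08, 1.06 and 1.04. From 100 units on, SMED30001635 was therefore no higher than that median. Between 400 and 800 units the members lay between 0.938 and 1.03. piwi-1 started higher than most members, at 1.73, and was at 1.06, the median of abundant genes, by 100 to 200 units, where mat2a had 1.24.

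**Figure D4:**
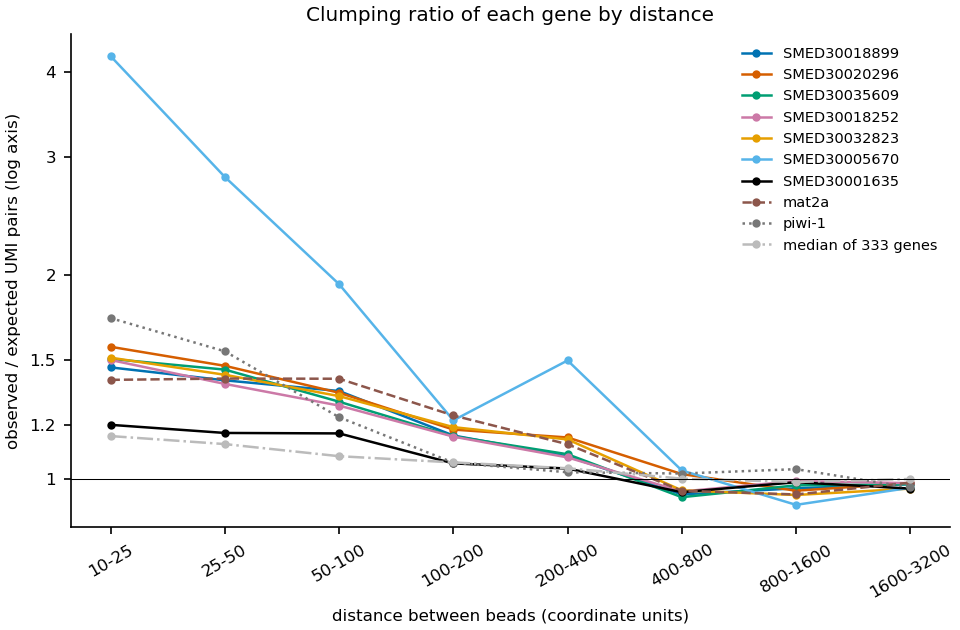
Observed over expected pairs of a gene's UMIs on different beads (log axis) by the distance between the beads in coordinate units, for the 7 members, mat2a, piwi-1 and the median of 333 abundant genes. SMED30005670 starts at 4.23, the other members start between 1.201 and 1.57, and the members are close to 1 beyond 400 units.

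On single beads, pairs of a gene's own UMIs were counted in the same way. This same-bead ratio was 1.35 (SMED30001635) to 7.30 (SMED30005670) with a median of 1.54, and the median of all abundant genes was 1.53. It was at least 1.2 for 7 of 7 members and for 83.5% of abundant genes. Between different members, the same-bead ratio averaged 1.37 over 21 pairs and ranged from 1.17 to 1.85, and the median over all pairs of abundant genes was 0.999.

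Different members also lay on neighbouring beads more often than their shares would give. Over the 21 pairs of members the neighbour ratio, defined as for clumping but with 1 UMI of each gene, averaged 1.35 and ranged from 1.17 (SMED30005670 with SMED30001635) to 1.52 (SMED30020296 with SMED30005670). It was at least 1.2 in 20 of 21 pairs, and in 12.0% of the 55278 pairs of abundant genes, whose median was 1.01. SMED30001635 had the lowest mean over its 6 pairs, 1.22, and the other 6 genes had means of 1.34 to 1.39.

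With mat2a on the neighbouring bead, the ratio was 1.23 (SMED30001635) to 1.46 (SMED30005670). With piwi-1 it was 0.693 (SMED30005670) to 0.903 (SMED30032823), beside a median of 1.01 over all pairs of abundant genes. With SMED30016196 it was 0.994 to 1.11. The 20 stem cell genes were not uniformly low. Their mean neighbour ratios with the members had a median of 0.973 and ranged from 0.808 (SMED30014446) to 1.13 (SMED30029899). The number below 1 was 6 of 20 for SMED30032823, 12 for SMED30005670 and 13 to 17 for the other members. The share of all abundant genes below 1 with a member or with piwi-1 was not counted, so these numbers have no background.

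**Figure D5:**
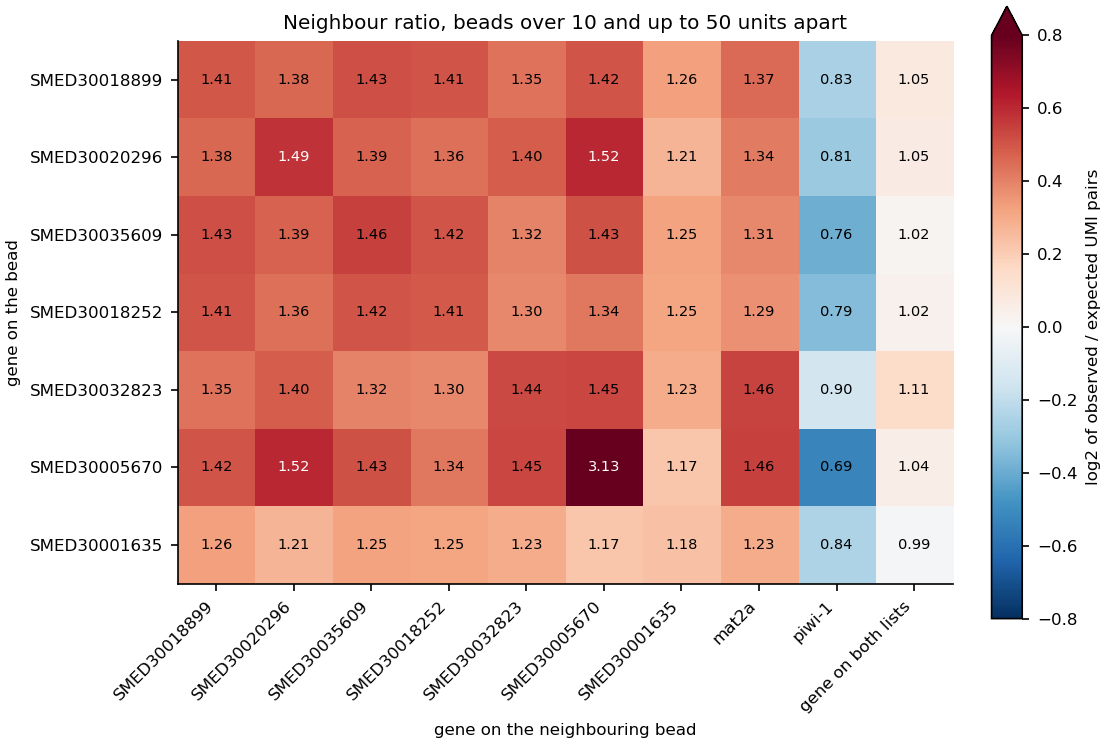
Observed over expected UMI pairs on beads more than 10 and up to 50 units apart, for each member (rows) with each member, mat2a, piwi-1 and the gene on both lists (columns); the diagonal is a gene's own clumping ratio and the colour is log2 of the ratio. Columns of members and mat2a are above 1 and the piwi-1 column lies between 0.69 and 0.90.

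SMED30005670 had its closest listed partner outside the members. Its neighbour ratio with SMED30003470, a scarce intestine gene with 461 UMIs, was 3.13, as high as with itself, while its ratios with the other 6 members were 1.17 to 1.52. On the same bead the ratio of this pair was 8.61, or 6.90 without the bead that held the most, and 154 beads held both genes. Their shares over the 771 patches correlated at 0.580, whereas SMED30005670 correlated with the 6 members at 0.0719 to 0.262. A closest partner outside the members was not particular to SMED30005670. SMED30032823 had a neighbour ratio of 1.49 with SMED30005571, another scarce intestine gene, and at most 1.45 with a member. SMED30018899 had 1.43 with SMED30003470 and the same value with its closest member, SMED30035609.

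At equal depth of 50 UMIs per bead, correlations between members over the 8789 beads were weak. Their mean was 0.0296 and they ranged from 0.00284 (SMED30032823 with SMED30001635) to 0.104 (SMED30035609 with SMED30018252). The mean over all pairs of abundant genes was -0.000583 and 1% of pairs exceeded 0.0404. Counts this sparse hold few UMIs of a member on a bead, and drawing 25 UMIs from the same beads gave a mean of 0.0149. Drawing 50 UMIs from beads with at least 100 UMIs gave 0.0332. Without equal depth the mean was 0.425, where the points share the depth of the bead.

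Over the 771 patches, where counts are larger, the same pairs correlated at 0.320 on average. The closest pairs were SMED30035609 with SMED30018252 (0.677) and SMED30018899 with SMED30018252 (0.630), and the most distant was SMED30005670 with SMED30001635 (0.0719). The mean over all pairs of abundant genes was 0.00461. Patches come from 1 library, and their shares of 1 total are not independent.

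Among the other genes with at least 1000 UMIs, SMED30021545 (23035 UMIs) and SMED30030799 (21262 UMIs) correlated most with the members over patches. Their means were 0.463 and 0.458. Their ratios of rich to poor patches were 7.12 and 10.4, and their clumping ratios were 1.43 and 1.49. SMED30018252, the most abundant member, had the highest mean of the 7, 0.460 with the other 6. SMED30005670, the least abundant, had the lowest, 0.189. Their mean neighbour ratios with the other 6 were in the reverse order, 1.35 and 1.39. Correlations over patches are lowered where counts are few, and the part of abundance in this order was not tested. SMED30027460 had the lowest mean correlation with the members, -0.240, and a ratio of rich to poor patches of 0.369.

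The pieces of tissue differed in their content of the 7 genes. The summed share was lowest in piece 1 at 0.876% (275 UMIs, interval 0.776 to 0.985%), had a median of 1.60% and was highest in piece 15 at 2.18% (3495 UMIs). The largest fold between pieces was that of SMED30005670, with 0.0125% in piece 8 (34 UMIs), a median of 0.0314% and 0.0953% in piece 4 (289 UMIs), or 7.64 times. For the other 6 genes the highest piece was 2.68 to 4.68 times the lowest. In piece 1, mat2a made up 0.0159% (5 UMIs, interval 0.00517 to 0.0372%) and piwi-1 0.0892% (28 UMIs, interval 0.0593 to 0.129%), both too few to rank the pieces by these markers.

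The genes did not rank the pieces alike. Piece 7 had the highest share of SMED30020296, 0.393% (62 UMIs), and the lowest share of SMED30035609, 0.114% (18 UMIs), although its 15765 UMIs make both values imprecise, with intervals of 0.302 to 0.504% and 0.0677 to 0.180%. Over the 15 pieces, r was 0.914 between SMED30035609 and SMED30018252 and 0.876 between SMED30018899 and SMED30018252. It was -0.234 between SMED30005670 and SMED30001635 and averaged 0.407 over 21 pairs, of which 18 were above 0, against 51.3% of all pairs of abundant genes, whose mean was 0.0241. The pieces share 1 library and differ in depth.

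Within the tissue, the summed share was lower far from the margin than near it. It was 1.66% within 50 units of the margin (3457 beads), 1.66% at 50 to 100 units and 1.47% at 100 to 150 units (376 beads). Beyond 150 units it was 1.28%, from 37 beads on which piwi-1 made up 0.209%. SMED30018252 made up 0.818%, 0.808%, 0.719% and 0.605% over these distances, while SMED30020296 made up 0.207%, 0.231%, 0.185% and 0.231%. SMED30005670 made up 0.0463%, 0.0394%, 0.0505% and 0.0149%, the last from 4 UMIs. No value over all abundant genes stands beside these shares, and the part of differences between pieces was not tested.

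The way barcodes were read changed the number of UMIs more than the pattern. UMIs were compared here over all barcodes and not only on beads with at least 50 UMIs. Syrah corrects barcodes with deletions and merges duplicated beads. With it the 7 genes had 1.22 to 1.26 times the UMIs of the standard counts of the same 2 runs. The median over abundant genes was 1.26. In the Syrah counts, adding the second run gave 1.04 to 1.06 times the UMIs of the first run alone, with a median of 1.06 over abundant genes. The clumping ratio of SMED30005670 was 3.05 to 3.33 in the 4 tables and that of SMED30018252 was 1.41 to 1.43. SMED30001635, at 1.18 in both Syrah tables, was just above the limit of 1.2 in both standard tables. The share of abundant genes that reached 1.2 was counted only in the Syrah-processed counts of 2 runs.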

How the data were processed

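The deposited UMI counts, a table of genes by bead barcodes per version, were made by the authors with WARP Slide-seqV2 v3.1.2, from the original reads (standard) and after Syrah correction of barcodes, for the first run and for both runs. Methods name schMedS3 as the reference, whereas the deposited counts carry SMED30 identifiers. The table of both runs with Syrah was used, without normalization, and expectations used the UMI totals of beads. Members and lists were chosen with earlier results of these data known. Named genes were the 7 members, mat2a, piwi-1, the extremes of each list, the first gene below the threshold and the 2 genes most like the members over patches; SMED30003470 is the list extreme for SMED30005670, and SMED30027460 and the details of pieces were picked after values were seen. Pieces are tissue barcodes linked at up to 40 units with at least 100 beads, limits chosen after seeing the data.

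Scripts used python 3.11.15, numpy 2.4.6 and scipy 1.17.1, and were tested on simulated counts. Correlations at equal depth are exact expectations over draws of 50 UMIs per bead. Alternatives covered bead depth, the 4 tables, tissue, quadrants, neighbour distance, limits and patch size. Shares were held to have moved outside their 95% counting interval, ratios and correlations beyond 1 SD over the 4 quadrants, and counts beyond 1.5 times.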

Additional observations from a re-analysis of the deposited data

How the results depend on the processing

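The summed share of the 7 genes, whose counting interval is narrow, was 1.63% in Syrah-processed counts of the first run, 1.60% in standard counts of 2 runs, 1.64% in standard counts of the first run, 1.64% over tissue, 1.38% off tissue, 1.62% without the 1% of beads with the most UMIs, 1.87% with the most abundant gene left out of totals, and 1.51 to 1.62% when each quadrant was left out. The mean correlation was 0.0138 with 25 UMIs as both bead minimum and draw, 0.0605 with 100 UMIs as both, 0.0149 with 25 UMIs drawn from the same beads and 0.425 without equal depth. The median clumping ratio was 1.25 inside pieces, and 1 of 7 genes was called at a clumping limit of 1.5. The other summary values stayed within the limits set, but for the median patch ratio that limit, 1 SD over quadrants, is 5.84 on a value of 8.06 and so is wide, since it was 4.12 with patches of 200 units and 2.64 with the upper against the lower 50%. Leaving out each quadrant gave these ranges (median clumping 1.34 to 1.47, 6 to 7 genes called, mean correlation 0.0262 to 0.0322, median patch ratio 5.04 to 9.41). Of 232 values of single genes under alternatives, 0 changed side of 1 and 13 moved by more than 1 SD over quadrants, of which SMED30032823 had a clumping ratio of 1.11 off tissue and lost its call there, while SMED30001635 gained one at 1.37. Tissue pieces, removal of the most abundant gene, beads off tissue and separate changes of draw and bead minimum were added after seeing the data. No paired analysis was possible because the 2 samples are runs of 1 library and no test was made.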
